A study of Homo sapiens with 17 samples.

Results

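The anti-ac4C pull-down (IP) of HEK293T cells treated with siRNA against TDP43 (siTDP43) was set directly against the IP of cells labelled WT, gene by gene, before any division by the input RNA or by the pull-down with control immunoglobulin G (IgG). The members were the 6 libraries whose titles name an IP, 3 of WT and 3 of siTDP43, of 17 libraries in all, and 13731 of the 23368 genes in the count table had enough counts in them to be tested. HEK293T is a human embryonic kidney cell line that carries the SV40 large T antigen, and every group came from this 1 line. Poly(A) RNA was isolated, incubated with antibody-coated beads and made into libraries by SMART-seq2, which copies RNA from its poly(A) tail. The siRNA was transiently transfected, and the labels give no time of harvest. The paper's methods give times of collection by culture format, without saying which served these libraries. Nothing labels the WT cells as having received a negative control siRNA. Transfection, the loss of TDP43 and any batch cannot be told apart in this design. Nothing in the labels says that replicates came from separate cultures, so p-values measure the spread between these libraries, which may be technical.

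N4-acetylcytidine (ac4C) is an acetylated form of cytidine that the acetyltransferase NAT10 writes on tRNA, 18S rRNA and mRNA, with THUMPD1 as its partner on tRNA. TDP43, encoded by TARDBP, is a nuclear RNA-binding protein that prefers UG-rich sequence and is known for its part in splicing and in amyotrophic lateral sclerosis, and the study examined it with PCBP1 and PCBP2 as an adaptor of NAT10. An acRIP-seq pull-down reports which transcripts the antibody retained from a pool, so each value is relative to that pool and carries no absolute level. In such a pool fewer acetylated molecules of a transcript and less of its RNA in the cell cannot be told apart.

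Both sense sequences of the siRNA are shown here, since they define the treated group. The capitals mark the bases that match the mRNA and the lower case marks the overhang.
siTDP43 sequence 1: GGCUGGUAGAAGGAAUUCUtt
siTDP43 sequence 2: GUCACAGCGACAUAUGAUAtt
The first matched exon 2 of TARDBP at chr1:11073948-11073966 and the second exon 4 at chr1:11078873-11078891 (GRCh37, plus strand), both within the coding sequence. In the IP libraries TARDBP (chromosome 1, 11072679 to 11085549) stood at 109, 113 and 114 CPM (counts relative to the library size after TMM normalization) in WT and at 68.7, 61.8 and 65.3 CPM in siTDP43. The groups did not overlap, and the log2 change was -0.78 (SE 0.08, edgeR adjusted p 2.41e-08). In the input the change was -0.57, and the change in the IP minus that in the input was -0.18 (edgeR adjusted p 0.0602). TARDBP mRNA was thus lower in the libraries labelled siTDP43, in the IP by less than 2-fold after TMM normalization and by more than 2-fold with scaling by the total count (-1.14) or with a GC trend removed (-1.11).

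Total counts were 19615316 to 21066215 in WT IP and 8610070 to 15736165 in siTDP43 IP. Replicates correlated at Spearman's 0.994 to 0.995 across genes within WT IP and at 0.988 to 0.990 within siTDP43 IP, against 0.799 to 0.803 between the groups. Replicates of a group differed by more than sampling noise, with a chi-square of 3.72 to 9.22 per degree of freedom, so no library repeated another. The markers of HEK293 cells, VIM, KRT8, KRT18, PAX2 and NES, were all counted in WT IP, and PAX2, at 7.02 ± 1.65 CPM there (SD, n = 3), had no count in any siTDP43 IP library. Of 8 markers of other tissues, ALB, PTPRC, CD3E, COL1A2 and MYH7 were too low to be tested. APOA1 averaged 10.98 CPM in WT IP and 3.74 CPM in siTDP43 IP, and DCN and CKM stayed under 3 CPM.

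Several of the transcripts that were abundant in the WT pull-down and scarce in the siTDP43 pull-down carry runs of purines in their coding sequence. The most purine-rich stretch of 100 bases within 1 coding exon is shown for EIF5B, ZC3H13, NSRP1, GOLGA4, RRBP1 and CENPF, which fell, and for the ribosomal protein genes RPSA, RPS3A and RPL9, which rose. The sequences are those of GRCh37, read on the strand of the gene, and the capitals mark runs of at least 10 A or G. They were chosen after the values of these genes were seen.
EIF5B: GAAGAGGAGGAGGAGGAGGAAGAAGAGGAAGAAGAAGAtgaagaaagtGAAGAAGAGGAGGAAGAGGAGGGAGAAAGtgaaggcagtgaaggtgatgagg
ZC3H13: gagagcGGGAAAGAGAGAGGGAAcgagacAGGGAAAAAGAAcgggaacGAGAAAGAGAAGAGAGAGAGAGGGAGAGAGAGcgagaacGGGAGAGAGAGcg
NSRP1: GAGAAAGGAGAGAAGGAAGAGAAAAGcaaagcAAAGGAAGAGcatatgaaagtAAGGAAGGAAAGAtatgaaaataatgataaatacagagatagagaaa
GOLGA4: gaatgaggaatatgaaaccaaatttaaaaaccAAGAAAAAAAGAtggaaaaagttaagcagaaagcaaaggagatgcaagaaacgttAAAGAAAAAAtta
RRBP1: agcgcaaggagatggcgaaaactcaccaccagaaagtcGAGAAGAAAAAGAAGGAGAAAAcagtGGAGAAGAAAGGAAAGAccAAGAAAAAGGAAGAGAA
CENPF: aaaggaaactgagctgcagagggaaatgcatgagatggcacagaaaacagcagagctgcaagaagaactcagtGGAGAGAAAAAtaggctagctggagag
RPSA: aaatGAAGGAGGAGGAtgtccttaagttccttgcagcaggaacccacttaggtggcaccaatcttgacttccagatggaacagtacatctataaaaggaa
RPS3A: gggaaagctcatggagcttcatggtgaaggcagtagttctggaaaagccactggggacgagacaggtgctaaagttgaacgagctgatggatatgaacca
RPL9: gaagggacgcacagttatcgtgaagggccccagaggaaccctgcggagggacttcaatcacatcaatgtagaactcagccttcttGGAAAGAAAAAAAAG
The EIF5B stretch lies at chr2:99992851-99992950 (plus strand) and consists of 93% purines. The ZC3H13 stretch lies at chr13:46549583-46549682 (minus strand) with 92%, that of NSRP1 at chr17:28512231-28512330 (plus strand) with 86%, that of GOLGA4 at chr3:37366200-37366299 (plus strand) with 78% and that of RRBP1 at chr20:17640920-17641019 (minus strand) with 83%. That of CENPF at chr1:214822035-214822134 (plus strand) had 75%. The richest stretch of RPSA at chr3:39449170-39449269 (plus strand) had 58% purines, that of RPS3A at chr4:152025625-152025724 (plus strand) 65% and that of RPL9 at chr4:39459817-39459916 (minus strand) 62%. The exons of EIF5B and ZC3H13 hold 4698 and 6409 bases, and those of RPSA and RPS3A 1147 and 905. A longer gene offers more stretches from which the richest is taken, and length was not corrected for. Taken over all exon bases, a wider measure, the richest 100 bases held 68 to 70% purines in decile 5 of the tested genes. In the highest decile they held at least 78%. From the lowest to the highest decile the median log2 change in the IP went from 0.05 to -1.03. It went from 0.41 to -0.98 in IgG and from -0.34 to -0.07 in the input. The contrast between the genes shown was not uniform. Bases in such runs numbered 72 in ZC3H13, 67 in EIF5B, 56 in RRBP1, 49 in NSRP1, 22 in GOLGA4 and 11 in CENPF, and 15 in RPL9, 12 in RPSA and 0 in RPS3A.

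EIF5B, the initiation factor that joins the ribosomal subunits, held 2.48, 2.72 and 2.81% of all counts in the 3 WT IP libraries, the largest share of any gene. In siTDP43 IP it held 0.0148, 0.01497 and 0.0121%. The groups did not overlap, and its share in WT IP was far above that in the WT input (0.00553, 0.00563 and 0.00542%) and in the 2 WT IgG libraries (0.0688 and 0.0866%). ZC3H13, a subunit of the complex that writes N6-methyladenosine, came next with 0.862, 0.907 and 0.911% in WT IP and 0.00301, 0.00297 and 0.00286% in siTDP43 IP. The other genes among the 5 with the largest share in WT IP were the ribosomal protein genes RPLP2, RPS2 and RPL8. In siTDP43 IP the genes with the largest shares included the ribosomal protein genes RPSA, RPS2, RPS3A and RPL13. RPSA, which encodes a protein of the small subunit, held 0.918, 0.814 and 0.792% of the counts there and 0.154, 0.135 and 0.134% in WT IP. Of the 100 most counted genes of each group, 55 were shared.

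The siTDP43 pull-down was the narrower of the pair. It took 250, 274 and 277 genes to reach 50% of the counts in the siTDP43 IP libraries, and 523, 489 and 472 in WT IP. The inputs ran the other way, with 601, 598 and 589 in siTDP43 and 477, 457 and 466 in WT, and the IgG libraries the same way, with 193, 194 and 195 in siTDP43 and 482 and 454 in WT. Ribosomal protein genes held 29.2, 27.98 and 27.8% of the counts in siTDP43 IP against 14.1, 14.3 and 14.6% in WT IP. In the input the order was reversed, at 11.7, 11.6 and 11.9% in siTDP43 and 19.1, 19.7 and 19.4% in WT, whereas siTDP43 IgG had 31.6, 31.4 and 31.3% and WT IgG 18.2 and 18.8%. The mean exon length of a counted gene, weighted by counts, was 3451, 3488 and 3480.3 bases in WT IP and 2167, 2201 and 2211 in siTDP43 IP. The other 11 libraries lay between 2010.4 and 2839.7 bases, so WT IP had the longest mean. GC content weighted by counts differed little, at 50.7, 50.4 and 50.5% in WT IP and 50.3, 50.1 and 50.01% in siTDP43 IP. The 100 most counted genes held 36.5, 35.2 and 35.1% of siTDP43 IP and 26.6, 27.7 and 28.1% of WT IP. The 10 most counted held 7.84, 8.23 and 8.43% of WT IP and 7.41, 6.805 and 6.71% of siTDP43 IP, an order that turned once the 10 most counted genes of each group were left out (2.20 percentage points higher in siTDP43). Thinned to 8610070 counts each, the libraries had 14865, 14879 and 14882 genes with a count in WT IP and 13025, 12989 and 12920 in siTDP43 IP. For 8 of these measures, those on genes that hold 50% of the counts, the 10 and the 100 most counted genes, EIF5B, ribosomal protein genes, exon length, GC content and thinned gene number, the groups did not overlap and the exact two-sided permutation test gave p = 0.1 (0.1 after Benjamini-Hochberg adjustment), the smallest that 3 libraries against 3 allow. EIF5B had been given beforehand as a mark of the WT pull-down, so the outcome for its share was fixed in advance.

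**Figure D1:**
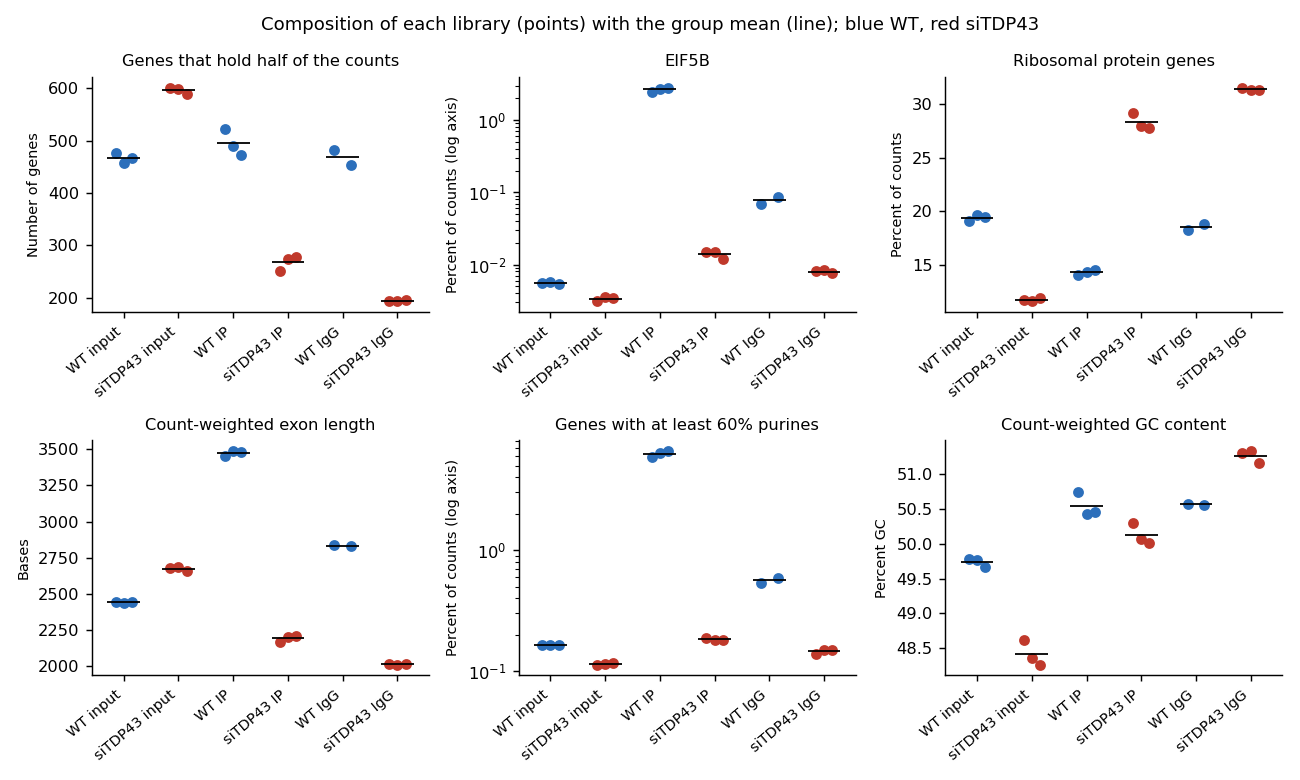
Composition of each of the 17 libraries (points; blue WT, red siTDP43) with the mean of each group (line), for the number of genes that hold 50% of the counts, the percent of counts in EIF5B, in ribosomal protein genes and in genes with at least 60% purines, and the count-weighted exon length (bases) and GC content (percent). EIF5B lies at 2.48 to 2.81% in WT IP and at 0.0121 to 0.01497% in siTDP43 IP, and the EIF5B and purine panels have log axes.

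A call needed an edgeR adjusted p under 0.05 and a change of more than 2-fold. By this measure siTDP43 IP was higher for 3040 of the 13731 genes (22.1%) and lower for 4627 (33.7%). Without the fold threshold 5037 were higher (36.7%) and 6380 lower (46.5%). The groups did not overlap for 3012 of the genes called higher and 4595 of those called lower. Genes past both thresholds are apt to separate in this way, so these counts add no support, and the share over all genes is not given here. All 3 siTDP43 IP libraries held at most 3 counts for 1188 tested genes, and all 3 WT IP libraries did so for 146. Such genes entered the fit only through their counts in the other group, which fixes their direction. Among the other 12397 genes 2894 were higher and 3439 lower, 36 of them over 32-fold higher and 107 over 32-fold lower, and the median log2 change was -0.06. The balance depended on the scaling: 60.3% of the calls were falls after TMM normalization, with a median log2 change of all genes of -0.23, and 72.7% after scaling by the total count (2133 higher, 5681 lower), with a median of -0.60. Changes are given relative to TMM throughout.

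**Figure D2:**
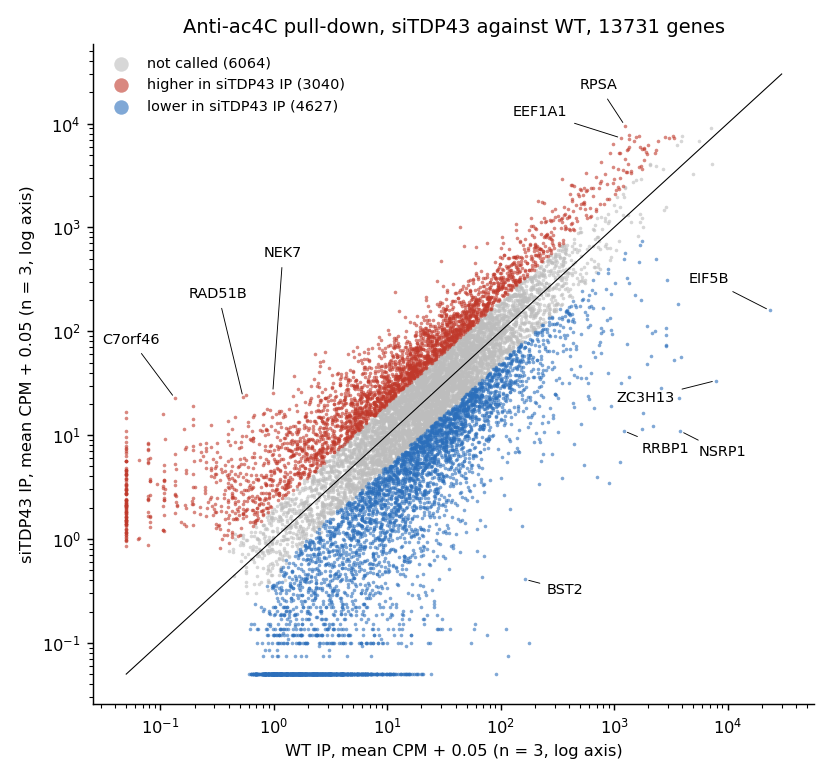
Mean CPM + 0.05 of each of 13731 genes in WT IP (x axis) and siTDP43 IP (y axis), 3 libraries each, on log axes, with genes more than 2-fold higher in red (3040), lower in blue (4627) and not called in grey (6064). The line marks equal values, and EIF5B, ZC3H13, NSRP1 and RRBP1 lie far below it.

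The deepest falls included those of BST2, SPARC, NSRP1, SLTM and ZC3H13. The ranking was made among genes with a mean of at least 100 counts, no overlap of the groups and neither group at or under 3 counts in every library. BST2, an interferon-induced membrane protein that tethers budding virions, had the lowest log2 change, -8.95 (SE 0.17, adjusted p 1.04e-18), from 173, 161 and 161 CPM in WT IP to 0.151, 0.414 and 0.509 in siTDP43 IP. SPARC, a secreted protein of the extracellular matrix, went from 61.9, 56.2 and 59.9 CPM to 0.303, 0 and 0 CPM, a log2 change of -8.76. NSRP1, a splicing regulator of nuclear speckles, had 3607, 3916 and 4007 CPM in WT IP and 12.02, 10.96 and 9.66 CPM in siTDP43 IP. Its log2 change was -8.44 (SE 0.10, adjusted p 2.32e-21). SLTM, a relative of the scaffold attachment factors, followed with -8.08, then ZC3H13 with -7.87, BOD1L with -7.69, IFIT2 with -7.68 and KIAA1377 with -7.55. In siTDP43 IP, BST2 had only 2, 4 and 4 counts and SPARC 4, 0 and 0. IFIT2 had 0, 6 and 4 counts there and KIAA1377 0, 0 and 4. These genes lay close to the limit of 3 counts, so the sizes and ranks of their falls are uncertain. In the input BST2 and IFIT2 were lower too, by log2 changes of -7.31 and -8.95, and SPARC by -4.45, whereas ZC3H13 stood at -0.58, BOD1L at -1.24 and NSRP1 at -2.01.

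EIF5B fell from 21462, 24005 and 25148 CPM in the WT IP libraries to 176, 168 and 132 in siTDP43 IP, a log2 change of -7.21 (SE 0.12, adjusted p 6.73e-20), or 148-fold. EIF5B had been given beforehand as a mark of the WT pull-down, so this fall is no independent evidence. Its change in the input was -0.63. The change in the IP minus that in the input was -6.56 (adjusted p 5.96e-27), and against IgG, where EIF5B changed by -2.83, it was -4.40 (adjusted p 4.43e-19). The fall in the IP was thus deeper than that in either control. Both differences use the same IP values of EIF5B, so they are no independent evidence either. Where every siTDP43 IP library held at most 3 counts, folds are lower bounds against 3 counts per library. IFIT3 was at least 575-fold lower, CCL5, a chemokine, at least 376-fold lower and SPINK5, a protease inhibitor, at least 366-fold lower. They were lower in the input too, with fitted log2 changes of -8.17, -15.48 and -3.36. The fitted change in the IP minus that in the input was -3.11 for IFIT3 (SE 0.68), -7.28 for SPINK5 (SE 1.67) and 3.54 for CCL5. That of CCL5 did not pass the test (edgeR adjusted p 0.088). All 3 values rest on counts at the floor in siTDP43 IP. None is a measured size, and no fall beyond the input can be read from them. No gene with a mean of 100 counts or more was at this floor in WT IP.

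Long coiled-coil proteins of the centrosome, cilium and Golgi fell as a group. Of 42 such genes tested, 27 were lower and 2 higher, beside 33.7% and 22.1% of all genes, and the median log2 change was -2.37 against -0.23 over all genes. GOLGB1, the Golgi tether giantin, had 2035, 2264 and 2316 CPM in WT IP and 11.9, 11.8 and 12.97 CPM in siTDP43 IP, a log2 change of -7.50. CEP250, which links the centrioles, went from 674, 719.9 and 722 CPM to 3.78, 3.93 and 4.07 CPM. The log2 change of CEP250 was -7.49 in the IP, 0.00 in the input and -0.57 in IgG, and the change in the IP minus that in the input was -7.48 (edgeR adjusted p 5.96e-27). GOLGA4, another Golgi tether, changed by -7.36, CEP290, of the transition zone of the cilium, by -7.26 and AKAP9, a scaffold for protein kinase A, by -6.78. CEP76 (2.62) and RPGRIP1L (1.67) were the 2 that rose. The members had a median purine content of 55.8% and a median exon length of 5926 bases, beside 50.6% and 3101 bases over all genes tested. Their median change was -0.02 in the input and -1.17 in IgG.

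Chromatin remodellers and histone methyltransferases were mostly lower, with 35 of 48 lower, 1 higher and a median of -1.91, beside 33.7% of all genes lower and 22.1% higher. ATRX, a remodeller of heterochromatin, had 1822, 1993 and 2033 CPM in WT IP and 47.4, 49.01 and 49.6 CPM in siTDP43 IP (log2 change -5.33). BAZ2B changed by -4.45, CHD2 by -3.57 and SETD2, the methyltransferase of histone H3 lysine 36, by -2.88, and ARID2 was the member that rose (1.19). The members had a median exon length of 8036 bases and a median purine content of 52.4%. The median in the input was -0.38 and in IgG -0.98. Among 40 kinesins and spindle proteins 11 were lower (27.5%) and 5 higher (12.5%), both below the shares over all genes, though single members fell far. CENPE, the kinetochore kinesin, changed by -6.49, from 2493, 2603 and 2641 CPM to 29.5, 32.9 and 22.9 CPM, and CENPF by -6.09, whereas the checkpoint protein MAD2L1 rose by 2.32.

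The largest rises, ranked among genes of the same kind, were those of C7orf46, RAD51B, C5orf28, NEK7, PGM2, C9orf156, CA2 and HTATIP2, with log2 changes of 4.48 to 7.90. C7orf46 had 0, 6 and 0 counts in WT IP and 269, 212 and 202 in siTDP43 IP, and its input change was 4.12. In WT IP, RAD51B had only 10, 18 and 6 counts, C5orf28 14, 12 and 10 and NEK7 16, 24 and 24. At such counts the sizes and ranks of these rises are uncertain. RAD51B, which serves homologous recombination, had 0.428, 0.755 and 0.274 CPM in WT IP and 23.4, 21.9 and 23.6 in siTDP43 IP, a log2 change of 5.53 (SE 0.27, adjusted p 5.89e-13). Its log2 change in the input was -0.25, and the difference of 5.80 was the largest rise over input among the genes ranked (adjusted p 2.21e-18). NEK7, a mitotic kinase that also serves the NLRP3 inflammasome, had 0.685, 1.01 and 1.096 CPM and 25.1, 25.9 and 25.7 CPM, with a log2 change of 4.77 in the IP and -0.19 in the input. CA2, a carbonic anhydrase, rose from 50.2, 43.2 and 36.9 CPM to 924, 1079 and 997 CPM. It rose in the input (4.14) and in IgG (4.74) as in the IP (4.52), and the change in the IP minus that in the input was 0.40 (edgeR adjusted p 8.97e-04). PGM2, a phosphopentomutase, changed by 4.73 in the IP and 1.70 in the input, and HTATIP2 by 4.48 and 2.95.

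Ribosomal protein genes gained in the siTDP43 pull-down. Of 77 cytosolic ribosomal protein genes, 58 were higher and none lower, beside 22.1% and 33.7% of all genes, with a median log2 change of 1.44. In the input 25 of them were lower and none higher (median -0.76), beside 21.6% of genes lower and 15.5% higher in that comparison, and in IgG 51 were higher (median 1.38), beside 25.8% of genes higher and 36.9% lower there. RPSA stood at 1332, 1196 and 1197 CPM in WT IP and at 10929, 9121 and 8673 CPM in siTDP43 IP, a log2 change of 2.95 (SE 0.09, adjusted p 3.91e-16). The lowest siTDP43 library was over 6-fold above the highest WT library. RPSA had been given beforehand as a mark of the siTDP43 pull-down, so this separation is no independent evidence. Its log2 change was -0.58 in the input and 2.14 in IgG, so RPSA rose in both pull-downs and not in the input. RPS3A changed by 2.53 in the IP, while RPL13 (0.94), RPS28 (-0.86) and RPLP2 (-0.83) passed the p threshold but not the fold threshold. The changes of RPS28 and RPLP2 turned to 0.030 and 0.0041 when a GC trend was removed from each library. RPS2 and RPL8 stood at 0.34 and 0.29, which turned to -0.028 and -0.0783 under scaling by the total count. RPS2 was lower in the input (-3.28), and the change in the IP minus that in the input was 3.64 (adjusted p 3.92e-25).

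Subunits of mitochondrial and degradation complexes were mostly higher in the 3 lists that follow, with 57.9 to 64.5% of their members higher beside 22.1% of all genes. Of 77 nuclear-encoded subunits of oxidative phosphorylation, 47 were higher and 1 lower (median 1.52). UQCRFS1, the Rieske iron-sulphur protein of complex III, rose from 58.95, 61.9 and 58.5 CPM to 473, 467 and 436 CPM, a log2 change of 2.94. ATP5D was the member that fell, by 1.16 on the log2 scale, a direction that turned (0.38) with the GC trend removed. Among 76 mitochondrial ribosomal proteins 44 were higher and 2 lower (median 1.33), and MRPL13 rose most, from 30.1, 27.2 and 32.3 CPM to 482, 495 and 461 CPM. Among 31 proteasome subunits 20 were higher and none lower (median 1.42), with PSMC6, an ATPase of the base, at a log2 change of 2.91. The medians of these lists were -0.06, 0.24 and 0.57 in the input and 1.38, 0.89 and 1.10 in IgG. Their median exon lengths were 930, 1238 and 1580 bases, below the 3101 bases of all genes tested. All of these medians were thus above 0 in the IgG pull-down as in the IP.

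**Figure D3:**
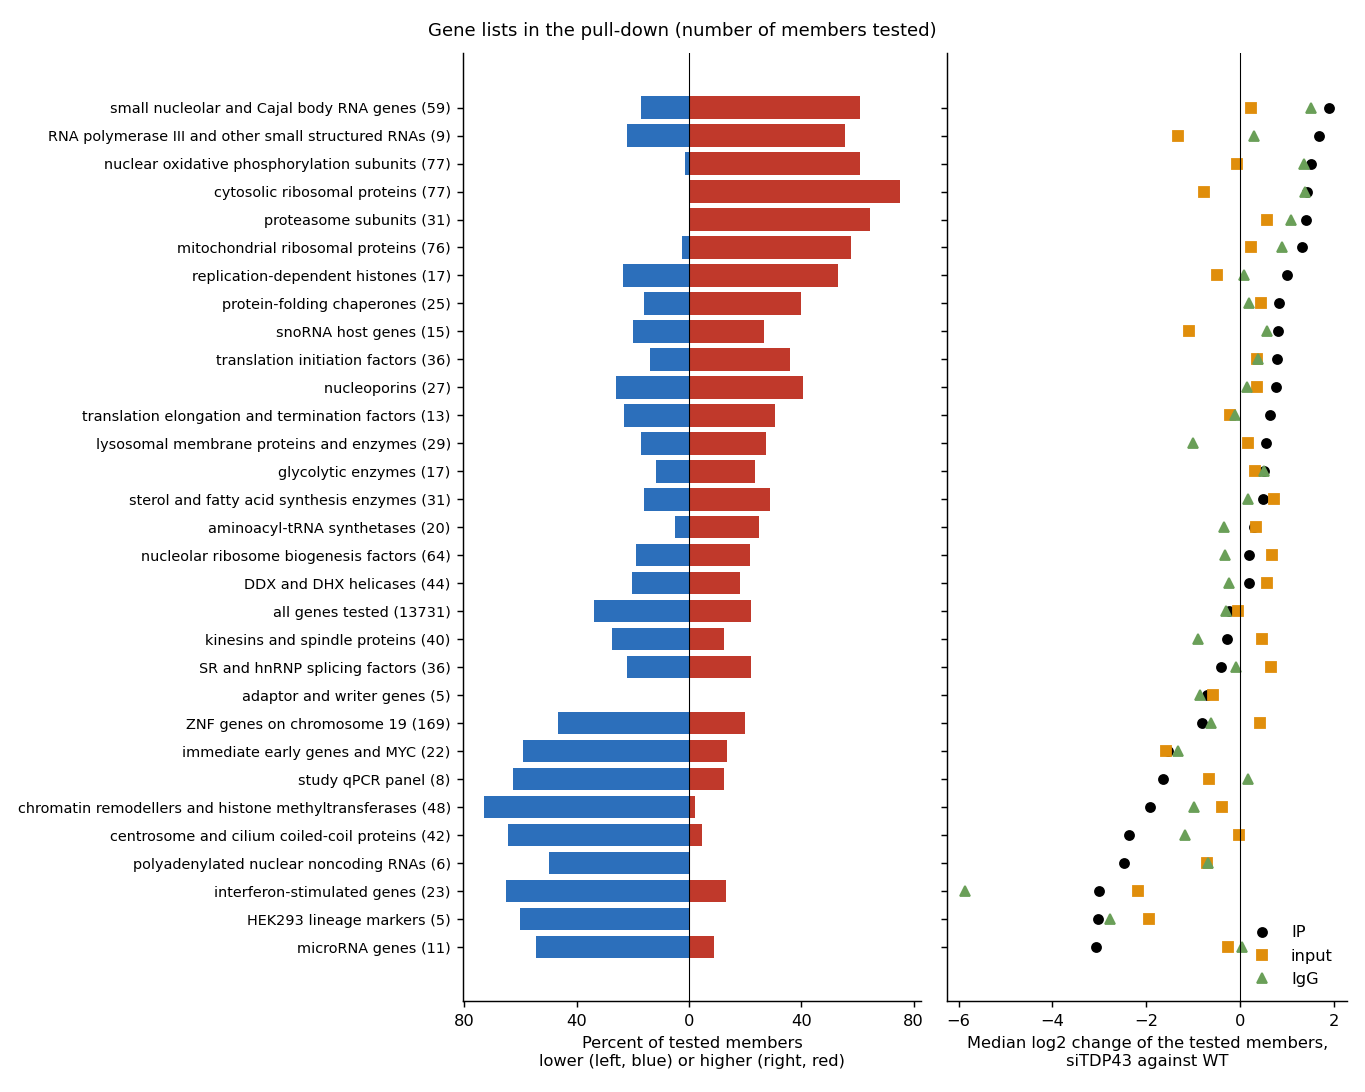
Left, percent of the tested members of each gene list that were lower (blue) or higher (red) in siTDP43 IP at an adjusted p under 0.05 and over 2-fold; right, median log2 change (siTDP43 against WT) of the tested members in the IP (circles), the input (squares) and IgG (triangles). Ribosomal proteins, oxidative phosphorylation and proteasome subunits lie at 1.42 to 1.52 in the IP, at 1.10 to 1.38 in IgG and at -0.76, -0.06 and 0.57 in the input.

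Translation factors split by gene, and their shares are to be read beside 22.1% of all genes higher and 33.7% lower. Of 36 initiation factors, 13 were higher and 5 lower (36.1% and 13.9%, median 0.80). EIF3E, a subunit of eIF3, rose from 159.5, 162 and 170.1 CPM to 816, 775 and 722 CPM (log2 change 2.23), while EIF3A (-2.78) and EIF4G1 (-1.63), the scaffolds of eIF3 and eIF4F, fell along with EIF5B. Of 13 elongation and termination factors 4 were higher and 3 lower (30.8% and 23.1%). EEF1A1 and EEF1A2, which encode near-identical proteins that deliver aminoacyl-tRNA, moved apart. EEF1A1 had 968, 1213 and 1281 CPM in WT IP and 8629, 6877 and 6237 CPM in siTDP43 IP (log2 change 2.65). EEF1A2 had 217, 234 and 249 CPM and 10.2, 14.2 and 14.5 CPM (-4.20), with an input change of -3.86. Reads shared between such copies could shift either value. Of 20 aminoacyl-tRNA synthetases 5 were higher and 1 lower, RARS at 1.74 and GARS at -2.25.

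RNA-binding proteins moved both ways. In the lists of splicing factors, helicases and biogenesis factors 18.2 to 22.2% of the members were higher and 18.8 to 22.2% lower, close to or below the 22.1% and 33.7% of all genes. Of 36 SR and hnRNP splicing factors 8 were higher and 8 lower, from SRSF3 (2.41) to SRRM2 (-3.58), the serine- and arginine-rich scaffold of nuclear speckles, whose exons overlap another gene. Of 44 DDX and DHX helicases 8 were higher and 9 lower, among them DHX40 (2.24) and DDX46 (-2.49). Of 64 ribosome biogenesis factors 14 were higher and 12 lower. UTP15, of the small-subunit processome, had a log2 change of 3.31. TCOF1, the nucleolar protein treacle, fell from 2714, 2868 and 2978 CPM to 88.6, 87.2 and 98.8 CPM (-4.97), with an input change of 0.12. Of 27 nucleoporins 11 were higher (40.7%) and 7 lower (25.9%), with NUP37 at 2.96 and TPR, the filament protein of the nuclear basket, at -3.96. Exons of TPR overlap another gene.

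Most interferon-stimulated and immediate early genes fell in the IP and in the input. Of 23 interferon-stimulated genes tested among 30 listed, 15 were lower and 3 higher in the IP (65.2% lower beside 33.7% of all genes), and of 22 tested in the input 14 were lower and 3 higher, beside 21.6% and 15.5% of all genes there. Their median log2 change was -3.01 in the IP (-1.64 with the 6 genes at the floor set to their bounds), -2.18 in the input and -5.87 in IgG, where BST2, IFIT1 and IFIT2 had no count in siTDP43. The floor fixes the direction of the 6 genes in the IP, so the counts of calls there include calls fixed in advance. ISG15, a ubiquitin-like modifier, changed by -4.24 in the IP and -5.60 in the input, IFIT1 by -5.38 and -5.31, and IFIT5 rose in both (1.97 and 1.35). For IFIT2 the change in the IP minus that in the input was 1.27 and did not pass the test (edgeR adjusted p 0.0747). Of 22 immediate early genes 13 were lower in the IP (59.1%) and 16 of the 20 tested in the input, with medians of -1.54 and -1.57. In the IP 4 of the 22 were at the floor in 1 group, which fixes their direction. ATF3, a stress-induced transcription factor, had 314, 311 and 304 CPM in WT IP and 31.4, 39.4 and 30.5 CPM in siTDP43 IP (-3.20; input -3.85). KLF6 rose by 2.57 in the IP and 2.52 in the input.

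After TMM normalization the genes of the writer and its adaptors stayed within 2-fold in the IP. NAT10 had 52.2, 65.6 and 61.8 CPM in WT IP and 61.4, 52.7 and 65.5 CPM in siTDP43 IP, so the groups overlapped (log2 change 0.00, edgeR adjusted p 0.99). In the input NAT10 was higher by 1.12, and the change in the IP minus that in the input was -1.11 (edgeR adjusted p 1.20e-09). Its value in the IP turned to 0.39 with a GC trend removed and to -0.37 with scaling by the total count. PCBP1 (-0.99), PCBP2 (-0.70) and THUMPD1 (0.79) passed the p threshold and not the fold threshold. Scaling by the total count lowers the log2 changes, as for NAT10, so PCBP1 and PCBP2 could lie beyond 2-fold under it. TARDBP did so, as given above. Exons of PCBP2 overlap another gene on the opposite strand, and whether strand was used in counting is not known here.

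The study chose a panel of transcripts for qPCR from these libraries, so their direction here is not independent evidence. Of the 8, 5 were lower and 1 higher in siTDP43 IP, beside 33.7% and 22.1% of all genes. Set against the input, 4 of the 8 were lower and 2 higher in the IP, beside 28.1% and 21.1% of all genes in that comparison. RRBP1, the ribosome-binding protein of the endoplasmic reticulum, fell from 1185, 1216 and 1265 CPM to 12.9, 12.8 and 7.12 CPM, a log2 change of -6.76 (SE 0.13, adjusted p 6.17e-19). RBBP6, a ubiquitin ligase tied to mRNA 3' end processing, fell from 1040.2, 1185 and 1194 CPM to 30.5, 31.2 and 34.1 CPM (-5.16), and UPF3B, of nonsense-mediated decay, from 1962, 2216 and 2285 CPM to 97.03, 87.995 and 104 CPM (-4.48). Their log2 changes in the input were -1.95, -0.70 and -0.63, and the change in the IP minus that in the input was -4.79, -4.45 and -3.84 (edgeR adjusted p of at most 1.16e-18). LAMP1 (-2.26) and ZFP36L2 (-1.03) fell in the input too (-2.89 and -1.30). For these 2 the change in the IP minus that in the input was 0.64 (edgeR adjusted p 0.011) and 0.28 (edgeR adjusted p 0.255). Set against IgG, 6 of the 8 were lower and 1 higher in the IP, beside 22.6% and 28.2% of all genes in that comparison, and the difference was -2.22 for LAMP1 and -3.04 for ZFP36L2 (edgeR adjusted p 8.61e-10 and 3.96e-10). EEF1A1 was the member that rose, and GAPDH stood at 0.87, under the fold threshold.

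Noncoding transcripts moved both ways, to be read beside the same shares of all genes. Of 59 small nucleolar and Cajal body RNA genes tested, 36 were higher and 10 lower, but 16 of the 59 were at the floor in 1 group, which fixes their direction. SCARNA22 went from 8.31, 8.39 and 7.58 CPM to 18.5, 22.6 and 23.1 CPM. These RNAs have no poly(A) tail, so what such a library counts at their positions was not tested. Of 6 polyadenylated nuclear noncoding RNAs 3 were lower and none higher. NEAT1, the scaffold of paraspeckles, fell from 327, 318 and 319 CPM to 9.38, 10.3 and 12.2 CPM (-4.94; input -1.31, IgG 1.51), and MALAT1 changed by -4.11. VTRNA1-3, a vault RNA, rose from 3.47, 4.74 and 2.56 CPM to 14.7, 13.96 and 19.3 CPM. Among 169 ZNF genes on chromosome 19, 79 were lower and 34 higher (46.7% and 20.1%, median -0.82; input 0.42), 32 of them at the floor in 1 group, with ZNF260 at -3.84 and ZNF784 at 2.00.

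Further lists held calls in both directions, beside 22.1% of all genes higher and 33.7% lower. The glycolytic (23.5% higher) and snoRNA host genes (26.7% higher) lay near that background. Of 25 chaperones 10 were higher and 4 lower, from HSPA8 (3.07), the constitutive HSP70, to HSPA5 (-1.99), its relative in the endoplasmic reticulum, which fell in the input too (-2.34). Of 17 histone genes tested 9 were higher and 4 lower, HIST1H4C at 2.43 and HIST1H1C at -1.62. Of 31 sterol and fatty acid enzymes 9 were higher and 5 lower, ACAT2 at 4.22, with exons that overlap those of TCP1, and FADS2 at -2.73. Of 17 glycolytic enzymes 4 were higher and 2 lower, LDHB at 2.56 and ALDOC at -2.44. Of 29 lysosomal genes 8 were higher and 5 lower, GLA at 1.86 and NPC1 at -2.60. Of 15 snoRNA host genes 4 were higher and 3 lower, SNHG8 at 2.39 and SNHG1 at -1.43. Of 9 RNA polymerase III transcripts 5 were higher and 2 lower, and of 11 microRNA genes 1 was higher and 6 lower. Some members of these lists were at the floor in 1 group, which fixes their direction. They were 4 of the 17 histone genes and 4 of the 11 microRNA genes. Among the snoRNA host genes and the polymerase III transcripts 1 each was at the floor.

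Whether the pull-down changed more than the RNA it was drawn from was tested as the change in the IP minus the change in the input, in 12 libraries. Of 14781 genes tested, 3116 moved higher (21.1%) and 4152 lower (28.1%) in the IP than in the input by more than 2-fold at an edgeR adjusted p under 0.05. The input on its own had 2180 genes higher (15.5%) and 3037 lower (21.6%). Over the 13055 genes tested in both fractions, 2937 were higher in the IP. Of these, 861 were also higher in the input, which was 29.3% of the IP calls and 44.4% of the 1940 input calls, and 182 were lower in the input. Of the 4141 genes lower in the IP, 1674 were also lower in the input (40.4% of the IP calls, 60.3% of the input calls) and 238 were higher. The IP and input comparisons share no library, and their log2 changes correlated across genes with Spearman's rho of 0.44, a description over genes, which are not independent.

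LRRC37A4, ZC3H13, CEP250 and GOLGA2P5 had the deepest falls of the IP below the input among the genes ranked. LRRC37A4 had 59.3, 62.6 and 64.6 CPM in WT IP and 0.454, 0.827 and 0.8899 CPM in siTDP43 IP while it rose by 1.64 in the input, a difference of -8.13 (edgeR adjusted p 5.32e-16), and its exons overlap those of near-identical LRRC37A copies, which makes its count uncertain. For ZC3H13 the difference was -7.27 (adjusted p 5.96e-27) and for GOLGA2P5 -7.02. In the other direction stood RAD51B, NRXN2, GPR64 and LOC541471. NRXN2, a synaptic adhesion protein, fell in the IP (-1.73) and had no count in the siTDP43 input, so its fitted difference is no measured size. LOC541471 stood at -1.43 in the IP and -6.41 in the input, a deeper fall in the input. GPR64 rose in the IP (3.75) and fell in the input (-1.24). MRPL49 did the reverse (-1.48 and 1.30), with exons that overlap those of FAU and SYVN1.

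**Figure D4:**
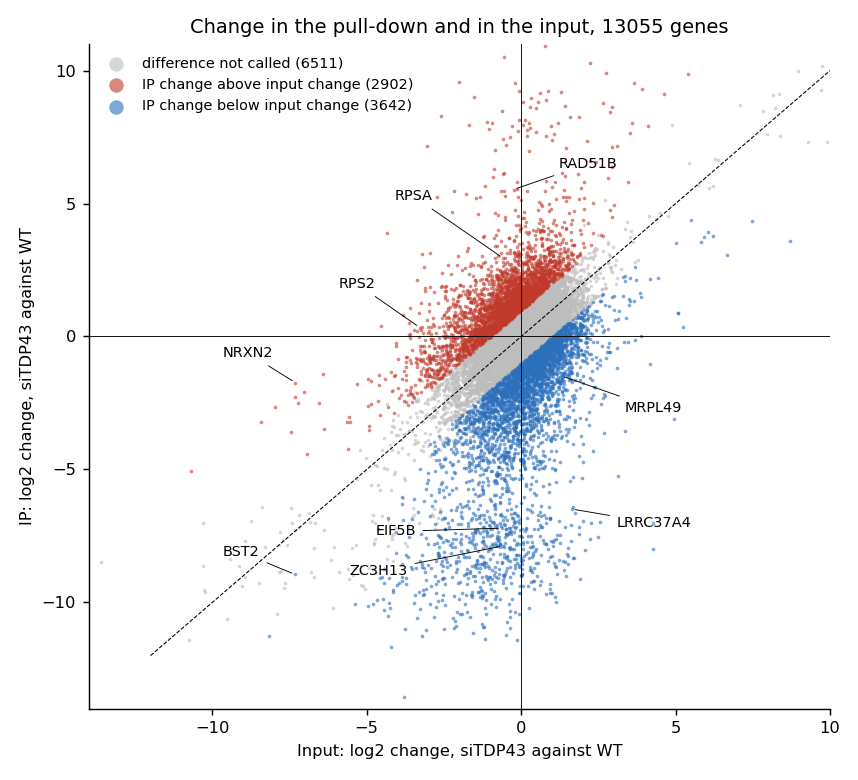
Log2 change (siTDP43 against WT) of each of 13055 genes in the input (x axis) and in the IP (y axis), with the dashed line where both are equal. Genes whose IP change was above the input change by more than 2-fold at an adjusted p under 0.05 are red (2902), those below are blue (3642), and EIF5B and ZC3H13 lie near 0 on the x axis and below -7 on the y axis.

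Against the control pull-down, in 11 libraries with 2 WT IgG libraries among them, 3904 of 13847 genes had a higher change in the IP than in IgG (28.2%) and 3131 a lower one (22.6%). Of the 2389 genes higher in the IP among the 10625 tested in both, 1069 were also higher in IgG (44.7% of the IP calls, 39.3% of the IgG calls), and of the 2952 lower, 1740 were also lower in IgG (58.9% and 44.8%). EIF5B, ZC3H13, NSRP1, RRBP1 and UPF3B were lower in siTDP43 IgG than in WT IgG as well, by log2 changes of -2.83, -4.82, -4.24, -1.13 and -3.29. The change in the IP minus that in IgG was -3.08 for ZC3H13 (edgeR adjusted p 2.18e-15), -4.23 for NSRP1, -5.66 for RRBP1 and -1.22 for UPF3B (edgeR adjusted p 5.13e-09). For SLTM the difference did not pass the test (-0.48, edgeR adjusted p 0.689). Of the 77 ribosomal protein genes, 10 rose more in the IP than in IgG and 7 less, and the median difference was 0.02, whereas 72 rose relative to the input (median 2.17). Of the 42 coiled-coil genes, 22 fell more in the IP than in IgG and 10 less.

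Exon length and GC content tracked the change in the pull-down, and the controls shared these trends unequally. From the shortest to the longest decile of genes (median exon length 921 and 8804 bases) the median log2 change in the IP went from 0.66 to -0.93, and the percent of genes lower from 21.0 to 48.7. IgG followed the same course, from 0.84 to -1.29, and the input did not (-0.38 to -0.20). From the lowest to the highest decile of GC content (37.6 and 64.7%) the IP went from 0.51 to -1.27 and the input from 0.26 to -1.06, whereas IgG was at -0.52 and -0.14. Across the 13731 genes Spearman's rho with the IP change was -0.21 for exon length and -0.31 for GC content, as a description. It was -0.33 for the content of C, 0.34 for that of T and 0.09 for purine content, which had no steady trend. From the lowest to the highest decile of purine content the median was -0.95 and -0.57, with 48.7% and 42.5% of genes lower, and the deciles between lay from -0.52 to 0.07.

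The pattern of purine content lay at its ends. It was examined after the sequences of the leading transcripts had been seen, so no test is given. Among genes with 50 to 52% A and G in their exons the median log2 change in the IP was -0.01, and it was -0.07 at 54 to 56%, -1.03 at 56 to 58%, -1.96 at 58 to 60% and -3.96 in the 54 tested genes with at least 60% (-3.21 with the 10 at the floor set to their bounds). Below 46% it was -1.45, so both ends fell. In the genes with at least 60% purines the input changed by a median of -0.50 (47 genes tested) and IgG by -2.65 (39 genes). Over the 38 tested in all 3 fractions the medians were -3.62 in the IP, -0.57 in the input and -2.62 in IgG. The change in the IP was below that in IgG for 21 of the 54 and above it for 2, beside 22.6% and 28.2% of all genes. For the 10 at the floor the direction in the IP was fixed. Of the 54, 43 were lower in the IP and 4 higher, beside 33.7% and 22.1% of all genes. They include EIF5B (60.96% purines over 4698 exon bases), NSRP1 (63.3%), CENPF (60.2%), CENPE (61.4%), GOLGA4 (60.6%) and UPF3B (61.6%), and ZC3H13 (59.7%), CEP250 (59.8%) and SLTM (59.6%) lie just outside. The 135 genes of the table with at least 60% held 5.89, 6.41 and 6.59% of the counts in the WT IP libraries and 0.186, 0.179 and 0.182% in siTDP43 IP. In the other groups they held 0.164, 0.165 and 0.163% (WT input), 0.113, 0.115 and 0.117% (siTDP43 input), 0.532 and 0.593% (WT IgG) and 0.138, 0.149 and 0.14999% (siTDP43 IgG). The share in siTDP43 IP was thus close to those of the inputs, and WT IgG lay between them and WT IP.

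Short motifs were counted too. On the transcript strand of the exons, TGTGTG, a UG repeat of the kind TDP43 prefers, was found in 66.9% of the tested genes, TGTGCG in 31.6%, TCCCAGCT in 20.05% and GAAGAA in 80.1%. The median log2 change in the IP was -0.33 with TGTGTG and -0.01 without, -0.65 with TGTGCG and -0.05 without, -0.64 with TCCCAGCT and -0.12 without, and -0.23 both with and without GAAGAA. Longer exons hold more of any motif, and per kilobase Spearman's rho was -0.03 for TGTGTG, -0.11 for TGTGCG, -0.10 for TCCCAGCT and 0.06 for GAAGAA.

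**Figure D5:**
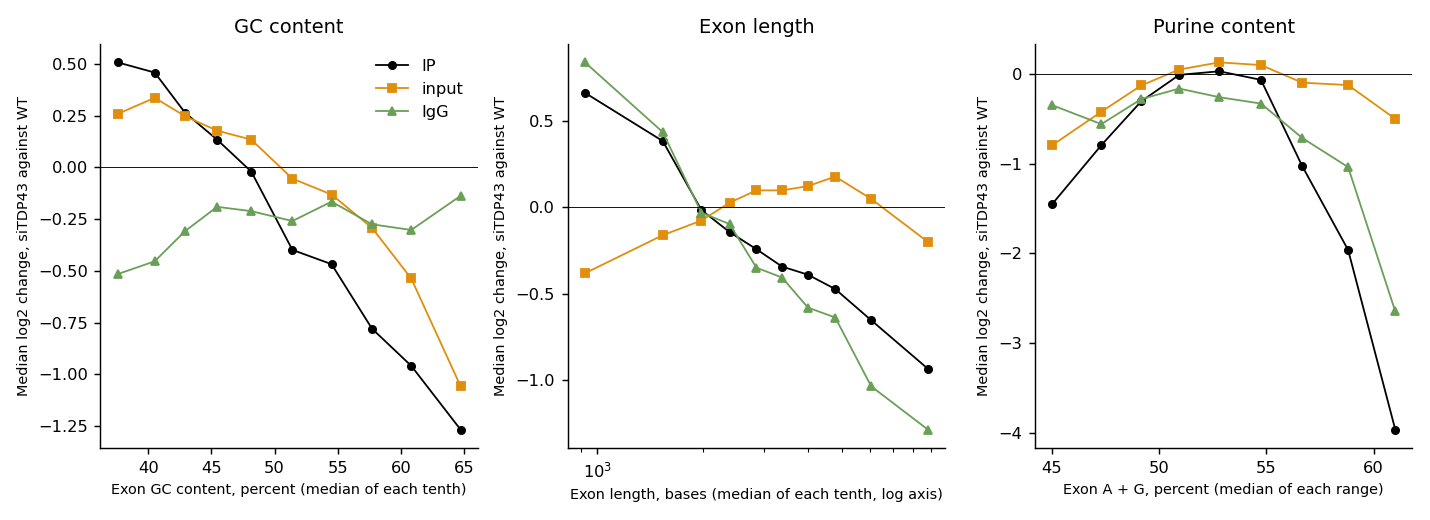
Median log2 change (siTDP43 against WT) in the IP (circles), the input (squares) and IgG (triangles) by exon GC content (deciles of the tested genes), exon length in bases (deciles, log axis) and exon purine content (ranges of 2 percentage points, with open ends). The IP and IgG fall with length, the IP and input with GC content, and the IP falls to -3.96 in the range of the highest purine content.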

How the data were processed

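The deposited table held raw counts per gene for 17 libraries, made by the authors and not normalized. The authors trimmed reads with Trim Galore 0.6.7, aligned them to hg19 with STAR 2.7.10a and counted uniquely mapped reads with featureCounts 2.0.2, per the methods and the submitters' processing notes. The annotation, the strand setting and the handling of pairs are not given in the sources used here. From 86.6 to 91.5% of the counts of 1 to 20 in the IP libraries were even, so mates appear to have been counted singly and a count is about 1 read, without molecular identifiers.

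Testing used edgeR 4.0.16 in R 4.3.3 (quasi-likelihood F test, two-sided, TMM, filterByExpr with a minimum count of 10) over the 6 IP libraries, and with inputs (12) or IgG (11) for the differences of changes. The Benjamini-Hochberg adjustment covered every gene in a fit, and a call needed an adjusted p under 0.05 and over 2-fold. Standard errors are the log2 change over the root of F. Floors are 3 counts per library and cover counting error only. Exon sequence came from GRCh37 at the positions in the table (23346 of 23368 genes). The fits were tested on simulated data. DESeq2 1.42.0 and the other alternatives are in the closing section.

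Genes were named by a rule: the 8 largest rises and falls with no overlap of the groups, an adjusted p under 0.05 and 100 counts or more on average, the 3 largest bounds, the 5 largest shares of each group, the extremes of each gene list, the 4 largest differences from the input in each direction, and the writer, panel and marker genes. Other members named singly were chosen after their values were seen. Some that the rule names are left out. The members and lists were chosen with earlier results of these data known. No spike-in entered the scaling.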

Additional observations from a re-analysis of the deposited data

Results flagged for a closer look

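For 4 of the named genes the IP and the input moved in opposite directions by more than 2-fold each, and the difference of the changes passed the edgeR test. LRRC37A4 changed by -6.49 in the IP and by 1.64 in the input, a difference of -8.13 (adjusted p 5.32e-16). MRPL49 changed by -1.48 and 1.30, a difference of -2.75 (adjusted p 4.37e-20). GPR64, an adhesion receptor of the G protein-coupled class, changed by 3.75 and -1.24, a difference of 5.01 (adjusted p 3.15e-13). VTRNA1-3 changed by 2.14 and -1.48, a difference of 3.64 (adjusted p 7.46e-10). All 3 siTDP43 IP libraries lay on the same side of all 3 WT IP libraries for each of the 4. The cause was not tested. Groups of 3 libraries are too small for the test of single outlying libraries.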

How the results depend on the processing

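The counts of genes higher and lower in the IP stayed within 1.5 times under DESeq2, other scalings, filters, all 17 libraries in 1 fit, a test against a fold of 2, halved counts, thinned WT libraries and a GC trend removed. Those of the differences from input and IgG did so too under these settings but the last 3, which were run for the IP comparison alone. Dropping the fold threshold gave 5037 genes higher in the IP and 4932 in the difference from the input. Leaving out each library in turn gave 3032 to 3119 genes higher and 4617 to 4920 lower in the IP. Replicate numbers did not pair the libraries: deviations of same-numbered IP libraries correlated at -0.01 to 0.02. With the replicate block 2974 genes were higher and 4598 lower.

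Without the 10 most counted genes of each group, siTDP43 IP minus WT IP was -311.7 genes that hold 50% of the counts, 2.20 points in the next 10 genes (reversed from -1.19), 10.001 points in the next 100, 11.6 points in ribosomal protein genes, -0.90 points of GC, -1248 bases of exon length and -2.89 points in genes with at least 60% purines. With a mean of at least 50 counts rho was -0.27 for length and -0.34 for GC content. The purine measures, and the GC trend for gene lists, were chosen after seeing the data. Of 806 counts of list members under alternatives, 749 were within 1.5 times. Of 1848 values of 103 named genes, 1810 kept direction and side of the threshold. Of the others, 23 no longer passed the p threshold, 1 came to pass it and 14 reversed. Those that reversed were RPS2 (-0.028) and RPL8 (-0.0783) with scaling by the total count, and with a GC trend removed, without and with the replicate block, RPLP2 (0.0041 and 0.0018), RPS28 (0.030 and 0.029), ATP5D (0.38 and 0.38), PSMD3 (0.17 and 0.17), NAT10 (0.39 and 0.40) and KRT18 (0.65 and 0.66). Their cause was not tested. The siTDP43 IP libraries were the shallower, which limits folds of genes at the floor of 3 counts.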

Other observations

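HBB, the beta-globin gene, had 18, 22 and 6 counts in the siTDP43 IP libraries and 20, 24 and 20 in the siTDP43 IgG libraries, and no count in any WT library or siTDP43 input library. In the IP this was at least 11.2-fold above 3 counts per WT library. The study added beta-globin probes that carry ac4C to its RNA before the pull-down, and whether these counts came from them was not tested.

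CKM, a muscle creatine kinase, was counted in WT IP only (1.97, 2.06 and 1.74 CPM), and DCN, the matrix proteoglycan decorin, almost only in siTDP43 IP (1.36, 1.24 and 2.29 CPM). NES, an intermediate filament protein of neural progenitors that HEK293 cells express, fell from 360.4, 338 and 336 CPM to 2.27, 3.52 and 5.59 CPM in the IP (-6.60; input -2.63), and KRT8 changed by -3.02 (-2.30 in the input), with exons that overlap those of KRT18.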
